A study of Mus musculus with 12 samples.

Results

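The 9 genes described here encode the signalling relay that runs from the costimulatory receptor ICOS through PI3K and AKT to the FOXO transcription factors. They are the PI3K subunits *Pik3cd*, *Pik3ca* and *Pik3r1*, the lipid phosphatase *Inpp5d*, the kinases *Akt1*, *Mtor* and *Tbk1*, and the factors *Foxo1* and *Foxo3*. They were taken by gene symbol from the deposited count table, where all 9 were found among 24561 genes, and all 9 passed the filter on low counts that left 12719 genes for testing. The libraries hold RNA of CXCR5hi PD-1hi OT-II Tfh cells, follicular helper T cells on a C57BL/6 background whose transgenic receptor recognizes ovalbumin, sorted from lymph nodes 3 days after immunization with NP-OVA and LPS in alum. The transferred OT-II cells carried CD4-Cre alone (wild-type, 3 mice) or CD4-Cre with 1 floxed *Bcl6* allele, CD4-CrexBcl6fl/+ (BCL6-insufficient, 3 mice). Both groups carried the Cre, which acts in T-lineage cells from the thymus on, and all recipients lacked SAP, so that the host's own T cells support germinal centers poorly. Each mouse gave 2 technical repeats of about 200 cells, or 12 libraries in all. The labels do not give the ages of the mice. The number of donor mice is not stated either, and if the recipients of a label shared a donor, donor and genotype cannot be told apart.

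ICOS belongs to the CD28 family and recruits PI3K through a motif in its tail. PI3K makes the membrane lipid PIP3, which draws AKT to the membrane, and SHIP1, the product of *Inpp5d*, removes a phosphate from that lipid. AKT phosphorylates FOXO factors, which then leave the nucleus, and it also activates the mTOR kinase through the TSC complex. In T cells FOXO1 promotes genes of naive and recirculating cells such as *Klf2* and *S1pr1*, and the tail of ICOS also binds the kinase TBK1. These steps act on proteins and lipids, and the libraries measured transcripts only.

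Total counts ranged from 3343375 to 8315722 per library with the BCL6-insufficient label and from 5240715 to 7266106 with the wild-type label. All 12 T and Tfh cell markers on a list made for this report were detected in every library, but 5 of them were lower and 2 higher with the BCL6-insufficient label. The lower ones were *Cd4* (log2 fold change -0.34), *Cd5* (-0.34), *Tcf7* (-0.27) and the sort markers *Cxcr5* (-0.40) and *Pdcd1* (-0.42), and the higher ones *Icos* and *Bcl6*. Their part in the results below was not tested. *Bcl6*, the targeted gene, went against its labels. It had 150.0, 146 and 150.0 normalized CPM in the mice labelled BCL6-insufficient and 54.8, 75.6 and 56.9 in the mice labelled wild-type, where normalized CPM is a count scaled to library size by TMM. The change was 1.25 on the log2 scale (standard error, SE, 0.12, adjusted p = 6.3e-07, edgeR), so every direction below rests on the labels. Reads from a deleted and an intact *Bcl6* allele are summed in these counts. Of the 10 B cell markers, none was called between the labels, and their summed level was between 468 and 808 CPM with the BCL6-insufficient label and between 589 and 986 with the wild-type label, most of it from *Ighm*. The defining B cell gene *Ms4a1* was at 0 in some libraries of either label, with at most 2.86 CPM in a library. Other B cell markers were uneven between the libraries of both labels. With the BCL6-insufficient label *Cd74* reached 94.5 CPM (median 14.2), *H2-Aa* 36.7 (median 1.32), *Igkc* 22.9 (median 2.22), *Cd79a* 19.8 (median 2.195) and *Cd79b* 16.5 (median 4.28). With the wild-type label *Cd74* reached 47.9 CPM (median 8.01), *H2-Aa* 14.3 (median 1.28), *Igkc* 13.7 (median 0.462), *Cd79a* 9.52 (median 0.183) and *Cd79b* 10.96 (median 1.96). Of the 7 myeloid markers in the table, *Lyz2* was higher with the BCL6-insufficient label (log2 fold change 2.64, adjusted p = 0.00531, edgeR), with at most 28.4 CPM in a library. The summed level of the list was between 98.6 and 121 CPM against 75.6 to 101. Most of this sum came from *Cst3*, at 79.0 to 101 CPM against 69.0 to 86.7, which was not called (adjusted p = 0.240, edgeR). *Ikzf2*, on the list of regulatory T cell markers, was also higher (log2 fold change 0.62, adjusted p = 0.00204, edgeR). The other markers on that list were not called, *Foxp3* at -0.58 (adjusted p = 0.314, edgeR) and *Il2ra* at 1.09 (adjusted p = 0.283, edgeR). *Foxp3* stayed at or under 7.21 CPM in every library. The part of these cell types in the results below was not tested.

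Between the labels, 1 of the 9 genes passed the threshold (adjusted p under 0.05), where 18.0% of all tested genes were called. This gene was *Pik3cd*, which fell with the BCL6-insufficient label. In pools of sorted cells, fewer cells that express a gene and less of its RNA per cell cannot be told apart. Of all genes tested, 9.17% were called higher and 8.82% lower, so that 51.0% of the calls were higher, a share that was 29.9% with log2(TPM + 1) and 29.7% with log2(TPM + 0.1). The median log2 fold change of the 9 genes was 0.17, and that of all genes tested was 0.011. In 2 of the 9, *Pik3cd* and *Akt1*, the 2 labels did not overlap by mouse, as in 34.4% of all genes tested. For none of the 9 did the libraries separate fully, which 8.66% of all genes tested did. The 6 mice are compared throughout by edgeR's quasi-likelihood test on the summed counts of their repeats, and p-values are adjusted by Benjamini-Hochberg over all 12719 genes.

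**Figure D1:**
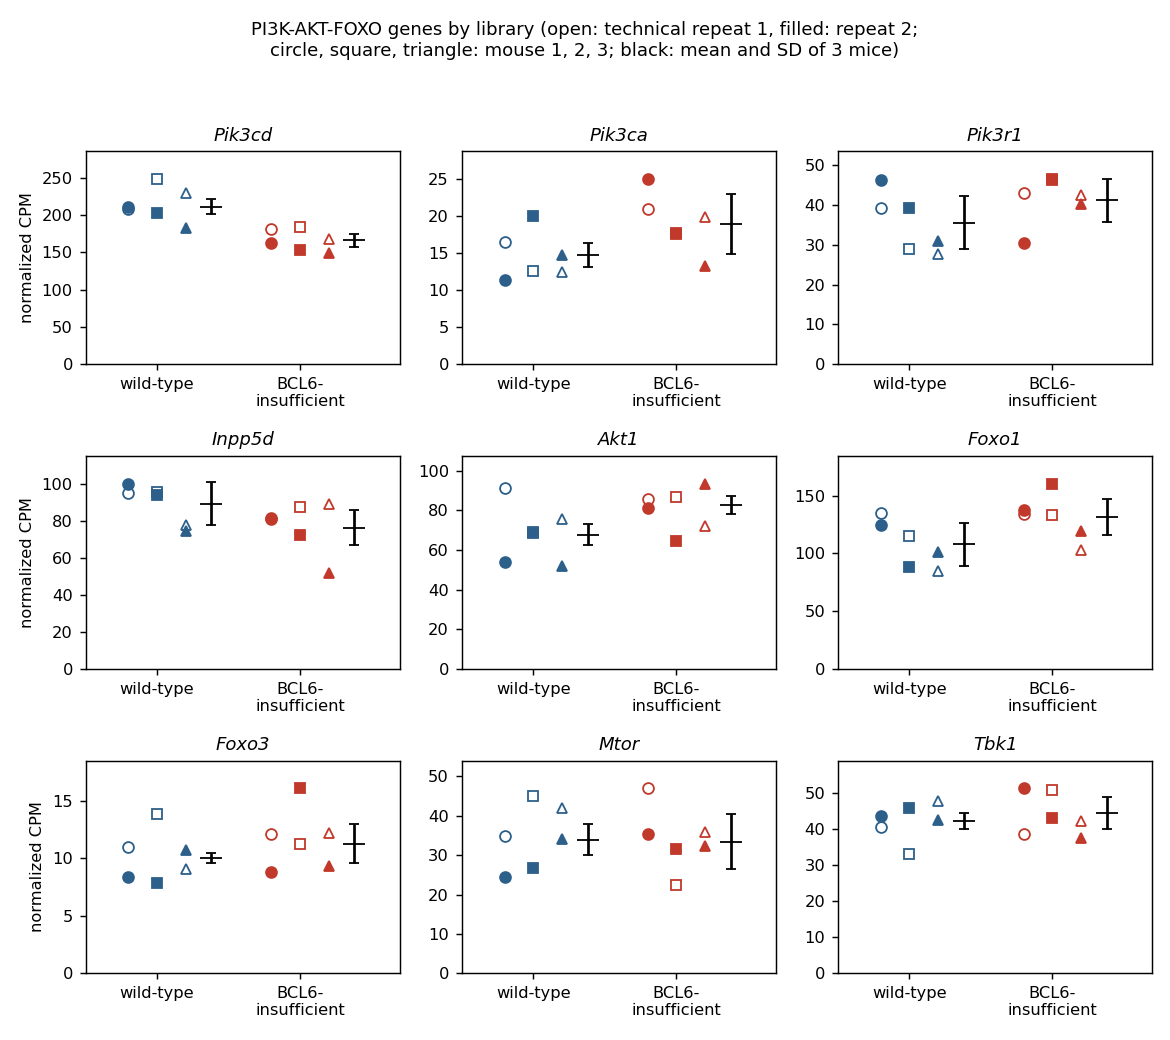
Normalized CPM of the 9 genes (vertical axes, each from 0) in the 12 libraries, grouped by label. Open and filled symbols are technical repeats 1 and 2, shapes are mice 1, 2 and 3, and black bars are the mean and SD of 3 mice. The *Pik3cd* libraries labelled BCL6-insufficient lie between 149 and 185 CPM, mostly under those labelled wild-type at 183 to 248, while the other genes overlap more.

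The promoters of 2 of these genes are shown because *Pik3cd* was the only gene called and because *Akt1* was the only one with FOXO letters in its window. RefSeq gives 13 start sites for the 9 genes on GRCm38.p6, all matched by symbol, and each window runs from 250 bases before the start to 50 bases from it on. The outermost *Pik3cd* window, 1 of 3 for this gene, lies at chr4:149698659-149698958 on the minus strand, and the *Akt1* window, 1 of 2, at chr12:112674835-112675134 on the minus strand. Capitals mark the FOXO letters GTAAACA read on either strand.
Pik3cd: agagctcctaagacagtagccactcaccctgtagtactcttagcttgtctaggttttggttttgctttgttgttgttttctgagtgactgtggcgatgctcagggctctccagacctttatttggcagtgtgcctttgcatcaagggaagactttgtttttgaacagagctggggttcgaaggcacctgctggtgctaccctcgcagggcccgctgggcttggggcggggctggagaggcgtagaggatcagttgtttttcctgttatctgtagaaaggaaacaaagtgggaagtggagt
Akt1: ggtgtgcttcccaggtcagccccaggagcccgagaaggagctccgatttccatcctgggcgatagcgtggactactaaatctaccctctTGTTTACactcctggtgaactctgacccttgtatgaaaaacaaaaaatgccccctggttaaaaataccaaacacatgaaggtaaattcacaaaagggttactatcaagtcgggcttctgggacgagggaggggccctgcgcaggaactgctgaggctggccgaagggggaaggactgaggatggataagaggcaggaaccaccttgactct
The capitals in the *Akt1* window start 161 bases before the start site. These letters occur in 3.65% of all 32851 promoter windows and in 1 of the 13 windows of these genes. The letters TTC and GAA with any 3 bases between, a core that BCL6 and STAT sites share and that reads the same on both strands, occur in 8.30% of all windows and in 1 of the 13, that of *Mtor*, 228 bases before its start. A match is a description of the letters and not of binding.

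*Pik3cd* encodes the delta catalytic subunit of PI3K, the form that dominates in lymphocytes. It spans chromosome 4 from 149649168 to 149702571 on GRCm38. The mice labelled BCL6-insufficient held 170, 173 and 157 normalized CPM, and the mice labelled wild-type 209, 222 and 202. Every mouse of the first label lay under every mouse of the second. The means were 166 ± 8.63 (SD, n = 3) and 211 ± 10.2 (SD, n = 3), a log2 fold change of -0.34 with a 95% interval from -0.54 to -0.14 (SE 0.10, adjusted p = 0.0157, edgeR). The log2 fold change was -0.36 with technical repeat 1 alone and -0.35 with repeat 2 alone, so the size was alike in both, although neither repeat alone passed the threshold (adjusted p = 0.106 and 0.0600, edgeR). With the dependence on GC content and length taken out in each mouse, the log2 fold change was -0.23 and the call was lost (adjusted p = 0.104, edgeR), and without wild-type replicate 2 it was -0.31 (adjusted p = 0.0713, edgeR). Its longest transcript has a GC content of 57.0%.

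*Pik3ca* encodes the alpha catalytic subunit, which is widespread across tissues, and lies on chromosome 3 from 32397671 to 32468486. Its normalized CPM was 23.4, 17.8 and 15.7 with the BCL6-insufficient label and 13.9, 16.7 and 13.7 with the wild-type label. The 2 labels overlapped, and the log2 fold change of 0.36 (SE 0.21, 95% interval -0.07 to 0.80) did not pass the threshold (adjusted p = 0.251, edgeR). It was 0.18 without BCL6-insufficient replicate 1 and 0.16 with log2(TPM + 1). *Pik3r1*, on chromosome 13 from 101680563 to 101768217, encodes the regulatory subunits that hold the catalytic ones and bind phosphorylated receptors. Its normalized CPM was 35.7, 46.4 and 41.4 against 42.7, 34.6 and 29.4, with a log2 fold change of 0.21 (SE 0.16, adjusted p = 0.400, edgeR). The highest wild-type mouse stood above 2 of the 3 mice of the other label. With technical repeat 1 alone the *Pik3r1* log2 fold change was 0.47 and with repeat 2 alone it was 0.017, with adjusted p of 0.178 and 0.975 from edgeR. Leaving out single mice gave *Pik3r1* values from 0.085 (without wild-type replicate 3) to 0.35 (without wild-type replicate 1).

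*Inpp5d* spans chromosome 1 from 87620312 to 87720507 and encodes SHIP1. It had 81.8, 81.8 and 65.4 normalized CPM with the BCL6-insufficient label and 97.5, 94.5 and 75.9 with the wild-type label. The lowest mouse of the wild-type label lay below 2 mice of the other. The log2 fold change was -0.22 (SE 0.13, 95% interval -0.48 to 0.037, adjusted p = 0.239, edgeR). A fall to 0.715 of the wild-type level and a rise to 1.03 of it both lie within that interval. BCL6-insufficient replicate 3 held the widest gap between repeats, with 89.3 CPM in repeat 1 and 52.2 in repeat 2, and without this mouse the *Inpp5d* log2 fold change was -0.13. With technical repeat 1 alone it was -0.050 and with repeat 2 alone -0.37.

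*Akt1*, on chromosome 12 from 112653821 to 112674884, encodes one of the 3 AKT kinases. The mice labelled BCL6-insufficient had 83.2, 78.1 and 86.8 normalized CPM and the mice labelled wild-type 72.3, 68.8 and 61.9. All 3 mice of the first label were above all 3 of the second. The means were 82.7 ± 4.36 (SD, n = 3) and 67.6 ± 5.29 (SD, n = 3), a log2 fold change of 0.29 with a 95% interval from 0.051 to 0.53 (SE 0.12), which missed the threshold over all genes (adjusted p = 0.0864, edgeR). The libraries overlapped, from 64.5 to 93.4 CPM (median 83.4) against 51.9 to 91.4 (median 69.0). With GC and length trends removed, the log2 fold change of *Akt1* was 0.48 and it was called (adjusted p = 0.00602, edgeR). Its GC content, 59.7%, was the highest of the 9. With technical repeat 1 alone the log2 fold change was 0.059 and with repeat 2 alone 0.46 (adjusted p = 0.881 and 0.0666, edgeR).

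*Foxo1* spans chromosome 3 from 52268336 to 52353221. Its normalized CPM was 136, 144 and 115 with the BCL6-insufficient label and 129, 99.9 and 94.1 with the wild-type label. One mouse of each label crossed into the range of the other. The log2 fold change of 0.29 (SE 0.12, 95% interval 0.034 to 0.55) did not pass the threshold (adjusted p = 0.109, edgeR). It was 0.43 without wild-type replicate 1, where *Foxo1* was called (adjusted p = 0.0300, edgeR), and 0.29 with the replicate number as a block (adjusted p = 0.0479, edgeR). An antisense gene, Gm20402, overlaps *Foxo1* and held 54.3 counts per library on average, against 345 to 1121 for *Foxo1*, and SMART-Seq2 libraries do not mark strand, so reads of the pair cannot be told apart. *Foxo3*, on chromosome 10 from 42181841 to 42276755, encodes a FOXO factor under the same control by AKT. It had 10.2, 13.2 and 10.4 normalized CPM against 9.62, 10.5 and 9.99, a log2 fold change of 0.17 (SE 0.24, adjusted p = 0.692, edgeR). With 41 to 82 counts per library it was the shallowest of the 9, and its 95% interval ran from a fold of 0.795 to 1.58.

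*Mtor* encodes the catalytic kinase of both mTOR complexes and lies on chromosome 4 from 148448611 to 148557683. Its normalized CPM was 40.2, 26.1 and 33.9 with the BCL6-insufficient label and 29.6, 34.8 and 37.3 with the wild-type label. The mice of the 2 labels were interleaved, with a log2 fold change of -0.019 (SE 0.17, 95% interval -0.37 to 0.33, adjusted p = 0.955, edgeR). The sign of this value turned under upper-quartile scaling, where it was 0.014. *Tbk1*, on chromosome 10 from 121546455 to 121586787, is known for innate interferon signalling as well as for its binding to ICOS. It had 46.3, 47.9 and 39.5 normalized CPM against 42.1, 40.3 and 44.7, a log2 fold change of 0.074 (SE 0.14, adjusted p = 0.763, edgeR). A fold between 0.863 and 1.28 lies within the 95% interval of *Tbk1*.

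**Figure D2:**
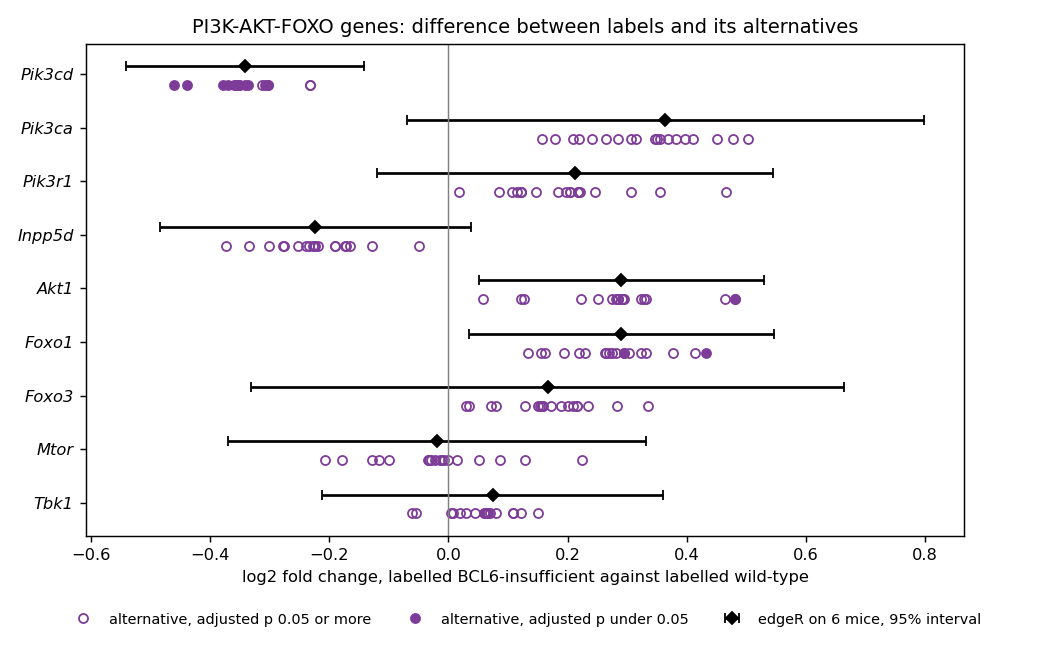
Log2 fold change of the 9 genes between the labels (horizontal axis), with black diamonds and bars for the edgeR value and its 95% interval and circles for 19 alternative analyses, filled where the adjusted p was under 0.05. *Pik3cd* lies under 0 throughout and is filled in 14 of 19, *Akt1* and *Foxo1* lie above 0 and are filled in 2 each, and *Mtor* and *Tbk1* fall on both sides of 0.

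Over the 9 genes and 6 mice, 29 of 54 pairs of repeats had an unadjusted p under 0.05 in an exact binomial test of their counts, against 43.1% of such pairs over all genes tested, and the ratio of repeat 1 to repeat 2 ranged from 0.629 to 1.76. In that test *Pik3cd* and *Mtor* differed in 5 of 6 mice each. Whether the difference between labels depended on the repeat was tested by an interaction term over the 12 libraries with the mouse as a block, a test added after the values were seen. None of the 9 was called (adjusted p between 0.754 and 0.997, edgeR), and 0.0943% of all genes were called. At an unadjusted p under 0.05 there were 0 of the 9, against 7.55% of all genes. The log2 fold change in repeat 2 minus that in repeat 1 was 0.39 (SE 0.24) for *Akt1*, 0.48 (SE 0.31) for *Mtor*, -0.46 (SE 0.28) for *Pik3r1* and -0.34 (SE 0.22) for *Inpp5d*. The *Mtor* value itself was -0.21 with repeat 1 alone and 0.22 with repeat 2 alone.

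Divided by the summed exon length of each gene, the levels fell into a high and a low set. In the mice labelled wild-type, *Pik3cd* was highest with 33.7 ± 1.63 CPM per kb (SD, n = 3), followed by *Akt1* with 16.5 ± 1.29, *Foxo1* with 12.4 ± 2.18, *Inpp5d* with 11.7 ± 1.54 and *Tbk1* with 10.8 ± 0.566. The lower set was *Pik3r1* with 3.53 ± 0.662, *Mtor* with 3.35 ± 0.390, *Pik3ca* with 1.63 ± 0.183 and *Foxo3* with 1.32 ± 0.0579. The wild-type mice overlapped between *Foxo1* and *Inpp5d*, between *Inpp5d* and *Tbk1* and between *Pik3r1* and *Mtor*, and the other neighbours did not overlap. With the BCL6-insufficient label, *Pik3cd* had 26.6 ± 1.38 CPM per kb (SD, n = 3) and *Akt1* 20.2 ± 1.06, and *Tbk1* stood before *Inpp5d*, with overlapping mice. Of the 2 catalytic subunits, *Pik3cd* was first and *Pik3ca* last but for *Foxo3* in both labels. These levels rest on the annotated exons of all isoforms of a gene together.

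**Figure D3:**
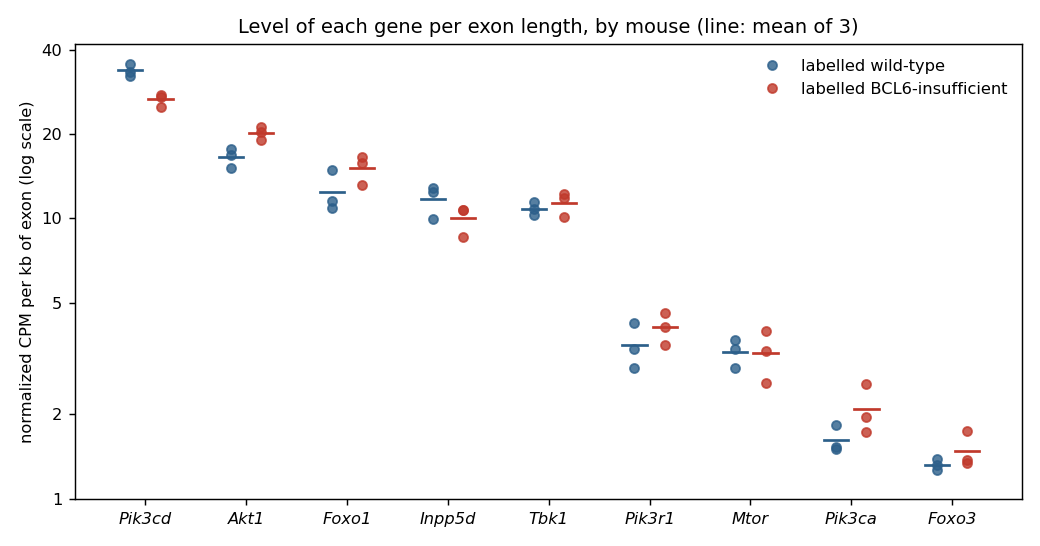
Level of the 9 genes in each of the 6 mice, as normalized CPM per kb of exon on a log axis, with the mean of 3 mice per label as a line. *Pik3cd* is highest and *Foxo3* lowest under both labels, and the 5 upper genes lie clear of the 4 lower ones.

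A ratio of 2 genes within a mouse does not depend on the scaling between libraries. Each of 4 ratios was compared between the labels by a two-sided exact permutation test over the 6 mice, which cannot give a p below 0.1 with 3 mice a label. The log2 ratio of *Pik3cd* to *Pik3ca* counts was 2.86, 3.28 and 3.32 in the mice labelled BCL6-insufficient and 3.91, 3.73 and 3.88 in the mice labelled wild-type. The labels did not overlap, with a difference of -0.69 on the log2 scale (exact permutation p = 0.1, adjusted p = 0.4 over the 4 ratios). Leaving out single mice gave differences between -0.77 and -0.54. The GC content of *Pik3ca*, 41.2%, is below that of *Pik3cd*, and with GC and length trends removed the log2 fold changes of the pair were 0.22 and -0.23. The ratio of *Pik3cd* to *Inpp5d*, kinase subunit to phosphatase, differed by -0.12 with overlapping mice (exact permutation p = 0.4). The ratio of *Foxo1* to *Foxo3* differed by 0.14 (exact permutation p = 0.6) and that of *Akt1* to *Foxo1* by -0.0042 (exact permutation p = 1.0), again with overlapping mice.

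**Figure D4:**
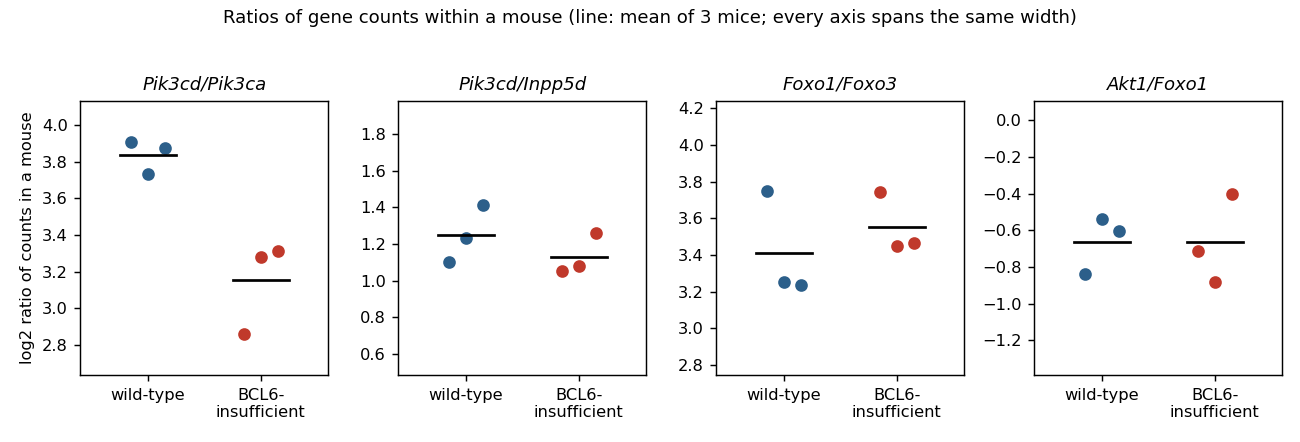
Log2 ratio of the counts of 2 genes within each mouse (vertical axes of equal width), by label, with the mean of 3 mice as a line. The *Pik3cd* to *Pik3ca* ratio separates the labels, at 2.86 to 3.32 against 3.73 to 3.91, and the other 3 ratios overlap.

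Of 117 other genes of the pathway, listed from general knowledge by role, 116 were in the table and 108 were tested. Of these, 9 rose and 10 fell with the BCL6-insufficient label, or 17.6% against 18.0% of all genes tested, and their median log2 fold change was -0.022. The mice of the 2 labels did not overlap in 37 of the 108, against 34.4% of all genes tested.

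Among 14 receptors that signal to PI3K, 1 was higher and 2 were lower, or 21.4% against 18.0% of all genes tested. *Icos* itself rose, with 452, 388 and 457 normalized CPM in the mice labelled BCL6-insufficient and 244, 309 and 281 in the mice labelled wild-type. All 6 libraries of the first label, at 380 to 501 CPM (median 437), lay above all 6 of the second, at 206 to 339 (median 277). Its log2 fold change was 0.64 (SE 0.10, adjusted p = 0.000147, edgeR). *Pdcd1*, which encodes the inhibitory receptor PD-1 and was one of the sort markers, fell by 0.42 on the log2 scale (adjusted p = 0.00420, edgeR). *Il6ra*, a subunit of the interleukin-6 receptor, fell by 0.38 (adjusted p = 0.0173, edgeR). *Cd28*, the relative of *Icos*, had 313 and 310 normalized CPM in the same order, with a log2 fold change of 0.011 (adjusted p = 0.954, edgeR).

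None of the 9 other PI3K subunits and regulators tested was called, where 18.0% of all genes tested were. Among them *Pik3cg*, the gamma catalytic subunit, had a log2 fold change of 0.14 (adjusted p = 0.599, edgeR) and *Pik3r2*, a second regulatory subunit, -0.56 (adjusted p = 0.0716, edgeR). *Pik3r3*, *Pik3r6* and *Pik3ap1* had too few counts to be tested. Of 15 other phosphatases of the pathway, 1 rose and 1 fell, or 13.3% against 18.0% of all genes tested. Both encode subunits of PP2A, a phosphatase that acts on AKT among many proteins. *Ppp2cb*, a catalytic subunit, averaged 28.6 ± 5.30 CPM in the mice labelled BCL6-insufficient and 10.9 ± 1.33 in those labelled wild-type (SD, n = 3), a log2 fold change of 1.38 (adjusted p = 6.37e-05, edgeR). *Ppp2r1a*, the scaffold subunit, had 209 ± 10.8 against 282 ± 13.3, a log2 fold change of -0.43 (adjusted p = 0.00237, edgeR).

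Of 10 tested kinases that act with AKT, 2 rose and 1 fell, or 30.0% of a short list against 18.0% of all genes tested. *Gsk3a*, a kinase that AKT inhibits, rose by 0.82 on the log2 scale (adjusted p = 0.0124, edgeR), and *Sgk1*, a kinase related to AKT that also phosphorylates FOXO factors, rose by 0.68 (adjusted p = 0.0212, edgeR). *Mapkap1*, which encodes a subunit of mTOR complex 2, fell by 0.50 (adjusted p = 0.0208, edgeR). *Akt2*, the other AKT gene with a sizeable count here, had 64.4 and 64.7 normalized CPM in the 2 labels, with a log2 fold change of -0.0058 (adjusted p = 0.983, edgeR). Among 30 tested genes of mTORC1 and its control, 3 rose and 3 fell. The members that rose were *Sesn3* (log2 fold change 0.65), *Eif4ebp2* (0.41) and *Lamtor2* (0.39), and those that fell were *Sesn2* (-2.16), *Ddit4* (-1.13) and *Lamtor1* (-0.44). The products of *Sesn2*, *Sesn3* and *Ddit4* restrain mTORC1, that of *Eif4ebp2* is a translation repressor that mTOR phosphorylates, and those of *Lamtor1* and *Lamtor2* help hold mTORC1 at the lysosome. These 6 of 30 are a share near the 18.0% of all genes tested. *Sesn2* was low, with 1.75 ± 0.578 and 7.80 ± 1.99 normalized CPM (SD, n = 3) in the 2 labels.

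Of 24 tested FOXO partners and FOXO target genes of T cells, 3 rose and 2 fell, or 20.8% against 18.0% of all genes tested. *S1pr1*, the receptor for lymph node egress, had 342, 355 and 383 normalized CPM with the BCL6-insufficient label and 202, 246 and 255 with the wild-type label. These mice did not overlap, and its log2 fold change was 0.62 (SE 0.10, adjusted p = 0.000176, edgeR). With technical repeat 1 alone the *S1pr1* log2 fold change was 0.24 (adjusted p = 0.336, edgeR) and with repeat 2 alone it was 0.94 (adjusted p = 5.96e-06, edgeR). *Usp7*, an enzyme that removes ubiquitin from FOXO factors among other proteins, had 94.93, 92.08 and 97.97 normalized CPM against 47.80, 57.86 and 38.59, and rose by 0.98 on the log2 scale (adjusted p = 2.87e-05, edgeR). *Sesn3* counts on this list too. *Ywhaq*, a 14-3-3 protein of the family that holds phosphorylated FOXO factors in the cytoplasm, fell by 0.70 (adjusted p = 8.08e-05, edgeR), and *Cdkn1b*, a cell cycle inhibitor, fell by 0.75 (adjusted p = 0.00746, edgeR). Other FOXO targets did not pass the threshold. *Klf2*, a transcription factor that drives *S1pr1*, had a log2 fold change of 0.18 (adjusted p = 0.251, edgeR) and *Ccr7* one of -0.14 (adjusted p = 0.395, edgeR). *Il7r* was near the limit of detection, with means of 1.34 and 1.06 normalized CPM. Among 10 tested genes around TBK1, 1 was called: *Sqstm1*, an autophagy adaptor that TBK1 phosphorylates, fell by 0.43 (adjusted p = 0.00629, edgeR), while *Ikbke*, the closest relative of *Tbk1*, had a log2 fold change of -0.10 (adjusted p = 0.650, edgeR).

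**Figure D5:**
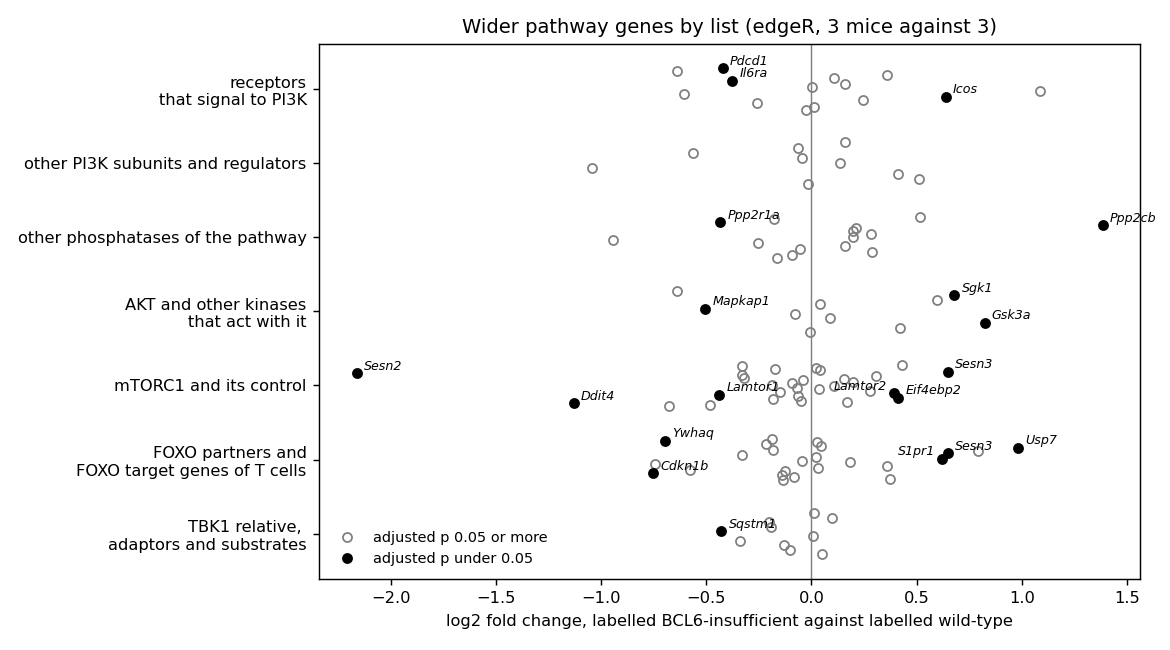
Log2 fold change between the labels (horizontal axis) of the tested genes on 7 lists of the wider pathway (rows), filled and named where the adjusted p was under 0.05. Filled points stand on both sides of 0 in 5 of the lists, the TBK1 list has 1 filled point, under 0, and the list of other PI3K subunits has none.

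*Icos*, *Usp7*, *Ppp2cb* and *Ywhaq* were called in all 19 alternative analyses, and none of the 19 called genes changed sign where it was tested. In all 19 genes the mice of the 2 labels did not overlap, so leaving out 1 mouse could hardly turn the sign. *Sesn2* was tested in 18 of them, since it had too few counts for the strictest filter. Leaving out 1 mouse ended the call of *Cdkn1b* (-0.62, adjusted p = 0.0555, without wild-type replicate 2), *Gsk3a* (0.59, adjusted p = 0.111, on leaving out BCL6-insufficient replicate 1, and 0.64, adjusted p = 0.0858, on leaving out wild-type replicate 3) and *Il6ra* (-0.32 in both cases, adjusted p = 0.0596 on leaving out BCL6-insufficient replicate 3 and 0.0886 on leaving out wild-type replicate 1), all from edgeR. The call of *Mapkap1* was lost on leaving out BCL6-insufficient replicate 1 (-0.42), wild-type replicate 1 (-0.43) or wild-type replicate 3 (-0.52), and that of *Sgk1* on leaving out BCL6-insufficient replicate 2 (0.67) or 3 (0.57) or wild-type replicate 1 (0.48). That of *Lamtor2* was lost on leaving out BCL6-insufficient replicate 1 (0.34) or 2 (0.37) or wild-type replicate 1 (0.35) or 3 (0.36).

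The 19 called genes were also fitted in each technical repeat alone. With repeat 1 alone, calls were lost for *Pdcd1* (-0.17, against -0.61 with repeat 2), *S1pr1* (0.24, against 0.94), *Gsk3a* (0.39, against 1.17), *Sesn2* (-1.46, against -2.92), *Eif4ebp2* (0.37, against 0.47) and *Ppp2r1a* (-0.40, against -0.47). With repeat 2 alone, calls were lost for *Ddit4* (-0.68, against -1.61 with repeat 1), *Sesn3* (0.42, against 0.90), *Cdkn1b* (-0.44, against -1.07), *Il6ra* (-0.19, against -0.56), *Lamtor1* (-0.37, against -0.55), *Lamtor2* (0.29, against 0.51) and *Sqstm1* (-0.41, against -0.47). *Mapkap1* (-0.42 and -0.57) and *Sgk1* (0.72 and 0.65) were called in neither repeat alone. With both TPM alternatives the calls of *Sesn3*, *Eif4ebp2*, *Gsk3a*, *Lamtor2*, *Il6ra*, *Mapkap1* and *Sgk1* were lost, and that of *Il6ra* also with wild-type mouse 2 represented by repeat 2. In the interaction test between label and repeat, also added after the values were seen, none of the 19 was called (lowest adjusted p = 0.205, *S1pr1*, edgeR). An unadjusted p under 0.05 was found in 5 of the 19 and in 15 of the 108 pathway genes, against 7.55% of all genes. Of all 108 pathway genes 1 was called, *Klf2*, whose log2 fold change was higher in repeat 2 than in repeat 1 by 0.91 (SE 0.19, adjusted p = 0.0397, edgeR).

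For each of the 9 genes, the gene whose log2 CPM followed it most closely over the 12 libraries was taken from all 12718 other tested genes. Pearson's r was 0.938 for *Pik3cd* with *Vrk1*, 0.925 for *Inpp5d* with *Cntnap1*, 0.916 for *Foxo1* with *Mbd6* and 0.901 for *Pik3r1* with *Stk16*. It was 0.892 for *Pik3ca* with *Cluap1*, 0.880 for *Tbk1* with *Eef2kmt* and 0.870 for *Akt1* with *Ptov1*. It was 0.859 for *Mtor* with *Trmt44* and 0.835 for *Foxo3* with *Prkdc*. None of these partners is on the pathway lists. Among the 9 genes themselves, the highest r was 0.651, between *Pik3cd* and *Inpp5d*, and the lowest -0.566, between *Pik3r1* and *Mtor*. Each partner's r is the highest of 12718 over only 12 libraries, and such a choice gives high values even among unrelated genes. No level for unrelated genes was computed. The highest r among the 9 genes was chosen from far fewer pairs, so it cannot be compared with those of the partners. The libraries share mice, labels and scaling, and these values describe them only.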

How the data were processed

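Reads were processed by the authors, who used FastQC for quality control, HISAT2 (version 2.2.1 in the submitters' processing notes) for alignment to GRCm38 and HTSeq-count for counting per gene. They deposited raw counts of 24561 genes and TPM values of 24530 genes for 12 libraries, with technical repeats in separate columns. The annotation release, the strand setting and the gene length behind TPM are not given in the sources used here.

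The deposited counts were added up over the 2 repeats of a mouse, and edgeR 4.0.16 (R 4.3.3) compared the 6 mice (filterByExpr, TMM, quasi-likelihood test, Benjamini-Hochberg over 12719 genes, threshold 0.05). Library CPM was scaled the same way over the 12 libraries, for the markers with all genes of the table kept. Standard errors and 95% intervals came from the F statistic. Lengths, GC content and coordinates came from GENCODE on GRCm38, and promoters from RefSeq. GC and length trends were removed with offsets fitted by mgcv 1.9.3 for 12586 genes. Other alternatives used DESeq2 1.42.0, limma 3.58.1 (voom, and log2 of TPM plus 1 or plus 0.1), each repeat alone, other scaling and filters, the replicate block, and leaving out each mouse. Scripts were tested on simulated data.

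The 9 genes, the lists, the ratios and the tests were chosen with earlier results of these data known. Beside the 9 genes, *Icos*, *Bcl6* and the pathway genes called with mice that do not overlap were named, up to 25 by smallest p, and other genes named in the text were chosen after their values were seen. Of the markers, 35 of 38 were in the table. P-values measure the spread between recipient mice. Molecular identifiers were not used, and binomial tests cover counting error only. The replicate numbers were not treated as pairs. Some results are not reported here.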

Additional observations from a re-analysis of the deposited data

Results flagged for a closer look

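Of 24 groups of 6 libraries examined (the 9 genes, *Icos*, *Bcl6* and the total count, by label), 1 had a single library well outside the rest, and about 1.2 would by chance. This was *Bcl6* in wild-type mouse 2 repeat 1, with 100.01 normalized CPM against 46.6 to 63.0 in the other 5 wild-type libraries. With that mouse represented by repeat 2 alone, a choice made after seeing the data, *Pik3cd* had a log2 fold change of -0.30 (adjusted p = 0.0490, edgeR), *Akt1* 0.28 (adjusted p = 0.132, edgeR) and *Foxo1* 0.33 (adjusted p = 0.113, edgeR).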

How the results depend on the processing

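Each gene was recomputed under 19 alternatives. *Pik3cd* stayed below 0 in all and was called in 14, and the call was lost with technical repeat 1 only (-0.36), technical repeat 2 only (-0.35), GC and length trends removed (-0.23), the same with the replicate block (-0.23) and 1 mouse left out (range -0.38 to -0.30). *Akt1* was called with those trends removed (0.48, and 0.48 with the replicate block). *Foxo1* was called with the replicate block (0.29) and without wild-type replicate 1 (range over mice left out 0.19 to 0.43). *Mtor* turned positive with technical repeat 2 only (0.22), upper-quartile scaling (0.014) and wild-type mouse 2 by repeat 2 alone (0.087), and lay between -0.18 and 0.13 on leaving out mice. *Tbk1* turned negative with log2(TPM + 1) (-0.055) and log2(TPM + 0.1) (-0.061). *Pik3ca*, *Pik3r1*, *Inpp5d* and *Foxo3* kept their sign and stayed uncalled in all 19. Among the 9 genes, 1 was called higher, rather than 0, with the replicate block, with trends removed, and with both, and 0 to 1 with a mouse left out. The count called lower, 1, was 0 with repeat 1 only, repeat 2 only, trends removed and trends removed with the block, and 0 to 1 with a mouse left out.

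Over all genes, 1166 were called higher and 1122 lower. These were 547 and 512 with repeat 1 only, 736 and 710 with repeat 2 only, 390 and 915 with log2(TPM + 1), and 374 and 886 with log2(TPM + 0.1), under which the median over all genes was -0.11 instead of 0.011. With a mouse left out they ranged from 730 to 965 and from 694 to 1007, both lowest without wild-type replicate 3. Pathway genes called higher, 9, were 4 in both TPM fits, and those called lower, 10, were 4 with repeat 2 only. The log2 ratio difference of *Pik3cd* to *Inpp5d* was -0.31 with repeat 1 only and 0.040 with repeat 2 only. That of *Akt1* to *Foxo1* was 0.038 with repeat 2 only and lay between -0.14 and 0.10 on leaving out mice. The cause was not tested. Same-numbered mice had correlations of 0.085, -0.028 and 0.025 between their deviations from the label means, and other pairs had -0.083 to 0.060. With 3 mice a label, these values cannot settle whether the numbers mark pairs. The replicate block therefore pairs mice by number only, and with it 1292 genes were called higher and 1287 lower. *Foxo3* had the fewest counts of the 9 genes, 41 to 82 per library.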
